A study of Mus musculus with 12 samples.

Results

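The protein subunits of the mitochondrial ribosome carry the symbols Mrpl (large subunit) and Mrps (small subunit) in the mouse, and 76 of the 23420 genes in the count table bore such a symbol followed by a number. The 51 of them with a mean of at least 1 CPM (counts of a gene per 1000000 counts of its library) over the 12 kidneys were taken as the members, 34 with Mrpl and 17 with Mrps symbols. Of these, 7 reached the minimum only through the group where they were high, Mrps11 and Mrps15 through the controls, Mrpl34 and Mrpl50 through set A, and Mrpl24, Mrpl40 and Mrpl49 through set B, so their differences between groups are partly set by the minimum. The other 25 rows lay below this minimum and are only named here. They were Mrpl14, Mrpl19, Mrpl20, Mrpl23, Mrpl30, Mrpl32, Mrpl33, Mrpl35, Mrpl36, Mrpl41, Mrpl51, Mrpl53, Mrpl55, Mrps5, Mrps6, Mrps10, Mrps12, Mrps14, Mrps17, Mrps24, Mrps27, Mrps28, Mrps33, Mrps35 and Mrps36, of which Mrpl23, Mrpl55 and Mrps36 were at 0 in all 12 kidneys.

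The libraries were made from kidneys of male C57BL/6J mice, with 4 kidneys in each of 3 groups, and per the study's methods the middle of each kidney went to histology and the rest was frozen. Control kidneys were normal kidneys removed at nephrectomy, and ischemic kidneys had their pedicle clamped for 20 min and were collected 24 h later, although the protocol label gives this treatment for the controls too. For the 8 ischemic kidneys, what a title says and what its group field says are opposite. Set A here means the 4 kidneys titled ISCH_ANESTH with the group field "ISCHEMIA conscious", set B the 4 titled ISCH_CONCIOUS with the group field "ISCHEMIA anesthesia", and no direction was therefore assigned to anaesthesia. Per the study's methods, the ketamine and xylazine of clamp surgery and tissue collection, and a brief sedation with isoflurane at clamping in the conscious procedure, were part of the model, so conscious mice were not free of anaesthetic. Library totals lay between 15367342 and 44793350 counts, and 3 counts, taken as the floor of detection, stood for 0.0670 to 0.195 CPM. The floor covers counting error only. The labels do not say that the kidneys of a group came from separate litters or days, so the p-values measure the spread between these kidneys.

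The mitochondrial ribosome translates the few messages of the mitochondrial genome, all of which encode subunits of the respiratory chain and of the ATP synthase. Its proteins are encoded in the nucleus, made in the cytosol and imported, and part of them descend from bacterial ribosomal proteins while the others exist only in mitochondria. The proximal tubule, the bulk of the kidney cortex, is dense in mitochondria because it reabsorbs solutes at the expense of oxidative metabolism. Names do not always match places in the particle: the proteins of Mrps30 and Mrps18a sit in the large subunit, and that of Mrps36 has been assigned to the 2-oxoglutarate dehydrogenase complex. With these counted by place, 36 members belonged to the large and 15 to the small subunit.

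Several factors are known to drive genes of mitochondrial proteins, among them GABPA, an ETS factor with the core CCGGAAG, NRF1 with the core GCATGCGC and YY1 with the core AAGATGGCG. The RefSeq promoter table (GRCm38.p6) held 45 of the 51 members, and the 250 bases before each start were searched on both strands. The ETS core was present in 14 of the 45 members (31.1%), against 10.2% of 17492 protein-coding genes and 7.83% of all 27025 genes of the table. Before the CPM minimum the share was lower, 17 of 67 Mrpl and Mrps genes (25.4%). The members had to pass that minimum and the comparison genes did not, so the shares are a description only. The NRF1 core was present in 6 members (13.3%, against 3.32% of protein-coding genes) and the YY1 core in 1 (2.22%, against 0.840%). The ETS core ends in the AAG with which the YY1 core begins, so these may overlap, and a match describes the sequence without showing that a factor binds there. The 3 most abundant members and Mrpl52, whose level is described below, were all among the 14 and are shown because they are the best measured members and one of the called ones, each 5′ to 3′ on the gene's strand with the core or its reverse complement CTTCCGG in capitals.
Mrpl52: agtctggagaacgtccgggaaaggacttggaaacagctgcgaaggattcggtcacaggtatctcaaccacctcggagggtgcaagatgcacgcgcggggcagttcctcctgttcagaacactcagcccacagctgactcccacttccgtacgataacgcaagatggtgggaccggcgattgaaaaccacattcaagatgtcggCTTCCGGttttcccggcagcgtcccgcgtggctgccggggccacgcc
Mrpl43: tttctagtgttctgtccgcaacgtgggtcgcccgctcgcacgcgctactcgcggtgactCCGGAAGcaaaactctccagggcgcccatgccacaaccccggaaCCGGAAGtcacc
Mrpl27: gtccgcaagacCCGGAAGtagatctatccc
Mrps18c: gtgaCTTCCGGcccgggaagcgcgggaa

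The stretch of Mrpl52 was chr14:54426659-54426908 (plus strand) with 1 core that begins 47 bases before the start, and that of Mrpl43 was chr19:45006443-45006557 (minus strand) with cores 56 and 12 bases before the start. Of Mrpl27, 30 bases at chr11:94653725-94653754 (plus strand) are shown, with a core 55 bases before the start that lies inside an exon of Eme1, a gene on the opposite strand. Of Mrps18c, the 28 bases at chr5:100798599-100798626 (plus strand) lie between the annotated exons of Mrps18c and those of Helq on the opposite strand, with the core 156 bases before the RefSeq start. The promoter region of Mrpl43 likewise runs into an exon of Twnk, which encodes the helicase of mitochondrial DNA replication. Members with the ETS core had a median of 3.25 CPM and those without it 3.11 CPM. Mrpl4, the member with the clearest fall, has no entry in the table.

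In control kidneys the members differed widely in level. Per kilobase of annotated exon (GENCODE vM21, GRCm38), the highest were Mrpl27 with 81.9, Mrpl43 with 78.4, Mrps18c with 40.6, Mrpl52 with 24.7 and Mrpl16 with 20.1 control CPM per kb. The lowest were Mrpl50 with 0.356, Mrpl48 with 0.343 and Mrpl17 with 0.217 control CPM per kb. The length is that of all annotated exons merged, 7605 bases for Mrpl17 and 4696 for Mrpl48, and need not be that of the expressed transcript. In control CPM, Mrpl17 and Mrpl48 stood at 1.65 and 1.61, above Mrpl24 at 0.596. Mrpl27, Mrpl16 and Mrpl17 encode bacterial-type proteins of the large subunit and Mrps18c one of the small subunit, whereas Mrpl43 and Mrpl52 are specific to mitochondria. The members Mrpl43, Mrpl27 and Mrps18c alone carried 41.3% ± 3.04 (SD, n = 4) of the summed member CPM in controls, and the other 48 the larger share.

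Exons of 18 of the 51 members overlap those of another gene, in 17 cases on the opposite strand. The libraries were stranded, but the strand setting of the counting is not given in the sources used here, so reads of such pairs may not be separable. This touches Mrpl43 (385 bases shared with Twnk), Mrpl27 (75 bases with Eme1) and Mrps25 (3533 bases with Nr2c2), and it leaves Mrpl4 and Mrpl52 without an overlap.

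Detection was patchy for the weaker members. Over 12 kidneys and 51 members, 54 of 612 values (8.82%) were at 3 counts or fewer, against 5.08% of the values of all 10429 genes with a mean of 1 CPM or more. At like abundance the order was the opposite: between a mean of 2.04 and 8.80 CPM, the middle range of the members, the share was 4.67% for 25 members and 6.83% for 2671 genes. The values at the floor numbered 12 in controls, 16 in set A, then 26 in set B (5.88%, 7.84% and 12.7% of 204 values each), and the shares over all 10429 genes were 4.25%, 4.75% and 6.24%. Set B replicates 3 and 4 held 20 of the 26, and without replicate 4, the library with the lowest total, 15 were left.

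Members with at least 1 kidney at 3 counts or fewer numbered 21: Mrpl1, Mrpl11, Mrpl17, Mrpl24, Mrpl34, Mrpl37, Mrpl39, Mrpl40, Mrpl45, Mrpl46, Mrpl48, Mrpl49, Mrpl50, Mrps7, Mrps11, Mrps15, Mrps18a, Mrps23, Mrps26, Mrps30 and Mrps31. Mrps15 was at the floor most often, in 6 kidneys, with 94, 1, 24 and 142 counts in control kidneys, 0, 46, 0 and 0 in set A, then 48, 3, 0 and 54 in set B. Mrps11 had 31, 353, 48 and 43 counts in control kidneys, 0, 53, 50 and 0 in set A, then 53, 0, 0 and 35 in set B. Both genes, which encode bacterial-type proteins of the small subunit, thus went from absent to well detected among kidneys of the same group. Mrps30 had 20, 152, 32 and 18 counts in control kidneys, 83, 78, 0 and 0 in set A, then 26, 22, 0 and 0 in set B. Mrps18a was at 3 counts in one control, at 0 in one set B kidney and between 41 and 167 counts in the remaining kidneys. No member was at the floor in every kidney of a group, and the other 30 members had more than 3 counts in each of the 12 libraries.

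**Figure D1:**
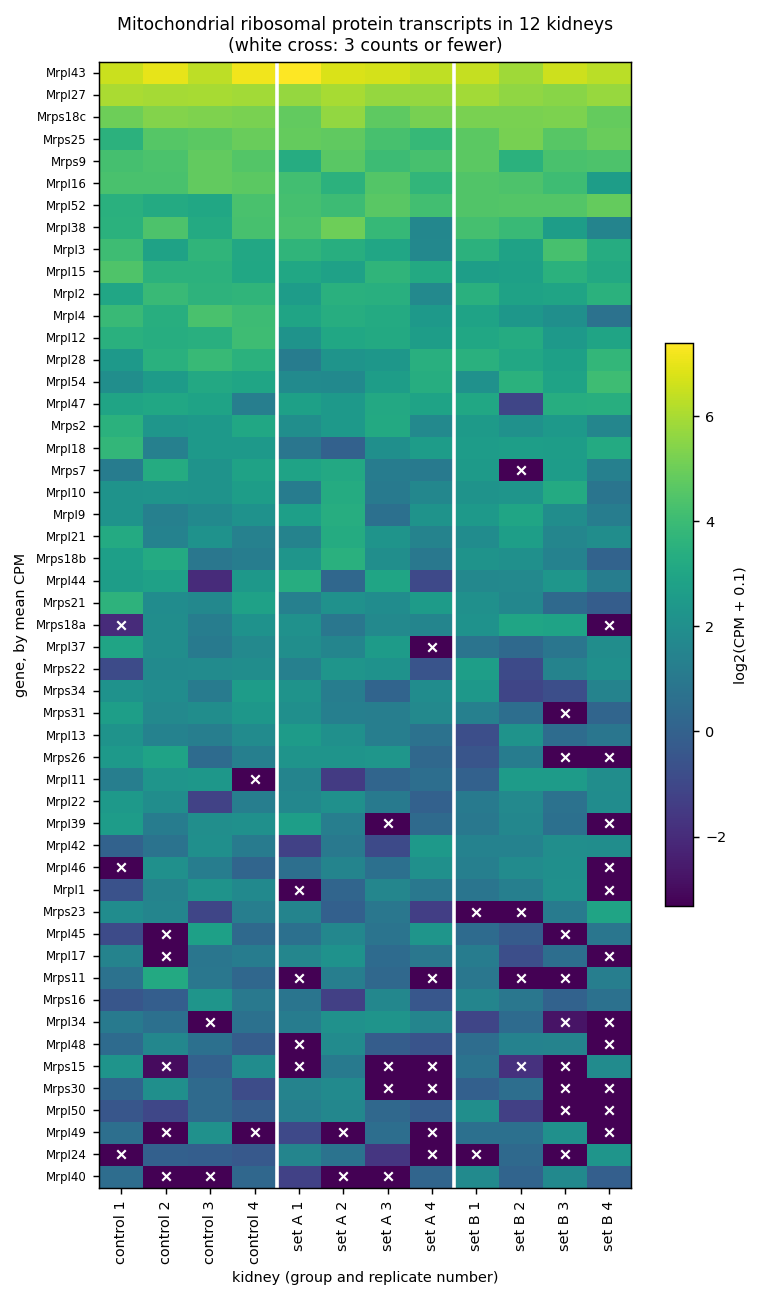
Heatmap of the 51 members (rows, by mean CPM) in the 12 kidneys (columns, by group and replicate), coloured by log2(CPM + 0.1), with white crosses at the 54 values of 3 counts or fewer. The crosses fall on 21 members in the lower part of the map, and 20 of the 26 in set B lie in replicates 3 and 4.

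This spread set what the comparisons could resolve. The biological coefficient of variation (the SD between kidneys relative to the mean, as fitted by edgeR) had a median of 0.908 over the members and 0.433 over all 11664 genes tested. It was lowest for Mrpl27, at 0.188, and 0.233 for Mrpl43. The median standard error of the log2 fold change, with both sets averaged against control, was 0.82 for the members and 0.37 for all genes tested, and the members' median level was 3.47 CPM against 12.7 CPM.

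**Figure D2:**
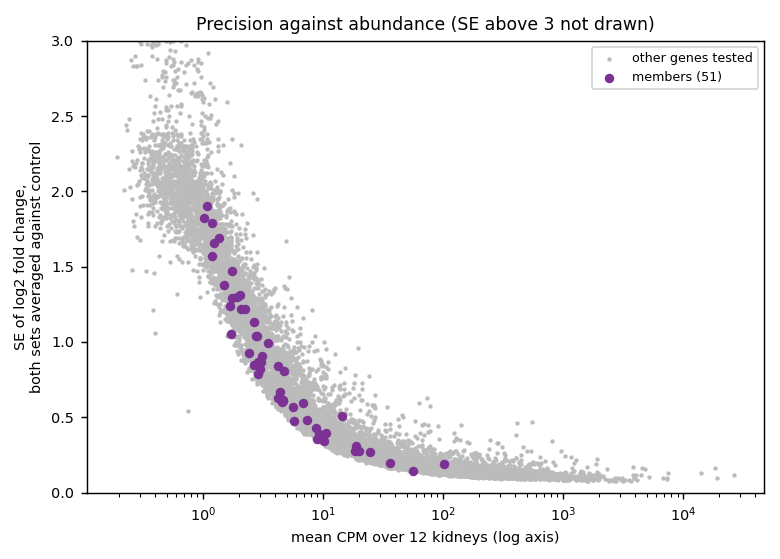
Standard error of the log2 fold change (vertical axis, both sets averaged against control) against mean CPM (horizontal axis, logarithmic) for the genes tested, with the 51 members in purple and other genes in grey. The members follow the band of other genes of like abundance, and most lie on its steep part, with a median standard error of 0.82.

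The first comparisons set the ischemic kidneys against the controls. Per the study's methods, controls were removed at nephrectomy, whereas the ischemic kidneys also went through clamp surgery and 24 h of reperfusion. Ischemia therefore cannot be told apart here from surgery and time. In set A against control, no member passed the threshold (adjusted p below 0.05 in the quasi-likelihood test of edgeR, adjusted over all genes, as in all the tests here), while 11.7% of all genes tested were called lower and 10.5% higher. Fitted log2 fold changes were below 0 for 34 of the 51 members, with a median of -0.24, against -0.02 over all genes. The median was -0.43 without set A replicate 2, -0.45 with limma-trend and -0.46 with the replicate number as a block. Other alternatives gave a smaller fall, and the full range is in the closing section. None of the members had an unadjusted p below 0.05, against 31.5% of all genes tested, and the count of members with DESeq2 at that level was 3, none of them past adjustment. In CPM, the 4 kidneys of set A lay wholly below the controls for 2 members, Mrpl4 and Mrpl12, and wholly above for 1, Mrpl34 (a member only through set A). The same held for 15.2% (lower) and 13.2% (higher) of all genes.

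In set B against control, Mrpl4 was called lower and Mrpl52 higher, where 11.9% of all genes were called lower and 10.9% higher. Fitted values were below 0 for 32 members, with a median of -0.28 against -0.02 over all genes. The median was -0.43 without set B replicate 1, while other alternatives gave a smaller fall (range in the closing section). The groups did not overlap in CPM for 3 members lower in set B (Mrpl4, Mrpl12 and Mrps31) and for 1 higher (Mrpl52), against 14.7% and 12.1% of all genes. Mrps31, a mitochondria-specific protein of the small subunit, had a log2 fold change of -1.92 there (SE 1.08, adjusted p = 0.240). With both sets averaged against control, the calls were again Mrpl4 lower and Mrpl52 higher, 1 member each way where 14.2% and 12.2% of all genes were called. Fitted values were then below 0 for 39 members (76.5%, against 51.4% of all genes), with a median of -0.31 against -0.03, and for 35 of the 44 members that passed the CPM minimum without any one group (median -0.31). These comparisons share the 4 control kidneys. By kidney, the members' median log2 deviation from the control mean was -0.59 in set A replicate 4, and -0.40 and -0.51 in set B replicates 3 and 4. In the other ischemic kidneys it lay between -0.15 and 0.21, and in the controls between -0.04 and 0.20.

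Mrpl4, a bacterial-type protein of the large subunit (chr9:21002738-21008839, plus strand), stood at 15.3, 10.3, 19.7 and 16.3 CPM in the control kidneys. It stood at 7.42, 9.98, 9.15 and 5.29 CPM in set A, then 7.36, 5.03, 3.95 and 1.56 CPM in set B. Every ischemic kidney lay below every control. It fell by 1.79 on the log2 scale in set B (SE 0.48, 95% interval -2.79 to -0.79, adjusted p = 0.00941), from a mean of 15.4 ± 3.88 to 4.47 ± 2.41 CPM (SD, n = 4 each). The call was kept when any single kidney was left out. In set A the mean was 7.96 ± 2.08 CPM and the log2 fold change -0.98 (SE 0.47, adjusted p = 0.160), which did not pass. With both sets averaged the log2 fold change was -1.38 (SE 0.39, adjusted p = 0.0108), and without control replicate 3, the highest control, it was -1.25 and no longer passed. In an exact two-sided permutation test of CPM, Mrpl4 had p = 0.0286 for each set, the smallest that 4 against 4 kidneys allow.

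Mrpl52, a mitochondria-specific protein of the large subunit (chr14:54426909-54429756, plus strand), stood at 11.1, 9.14, 8.29 and 19.9 CPM in the controls. It stood at 18.5, 16.1, 24.7 and 17.6 CPM in set A, then 22.5, 23.0, 22.9 and 28.6 CPM in set B. All kidneys of set B lay above the controls, whereas control replicate 4 reached into the range of set A. It rose in set B by 0.97 on the log2 scale (SE 0.31, 95% interval 0.32 to 1.63, adjusted p = 0.0297), from 12.1 ± 5.34 to 24.3 ± 2.93 CPM (SD, n = 4 each). In set A its mean was 19.2 ± 3.80 CPM and its log2 fold change 0.64 (SE 0.31, adjusted p = 0.169), and with both sets averaged the log2 fold change was 0.81 (SE 0.28, adjusted p = 0.0374), a call that held in 5 of the 12 fits that each left out a kidney. The set B call was lost without any of control replicates 1, 2 or 3 or set B replicates 1, 2 or 4, with log2 fold changes of 0.82 to 0.99, and without control replicate 4 set A also passed, at a log2 fold change of 1. The exact permutation p of Mrpl52 was 0.0286 for set B, against 0.114 for set A.

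**Figure D3:**
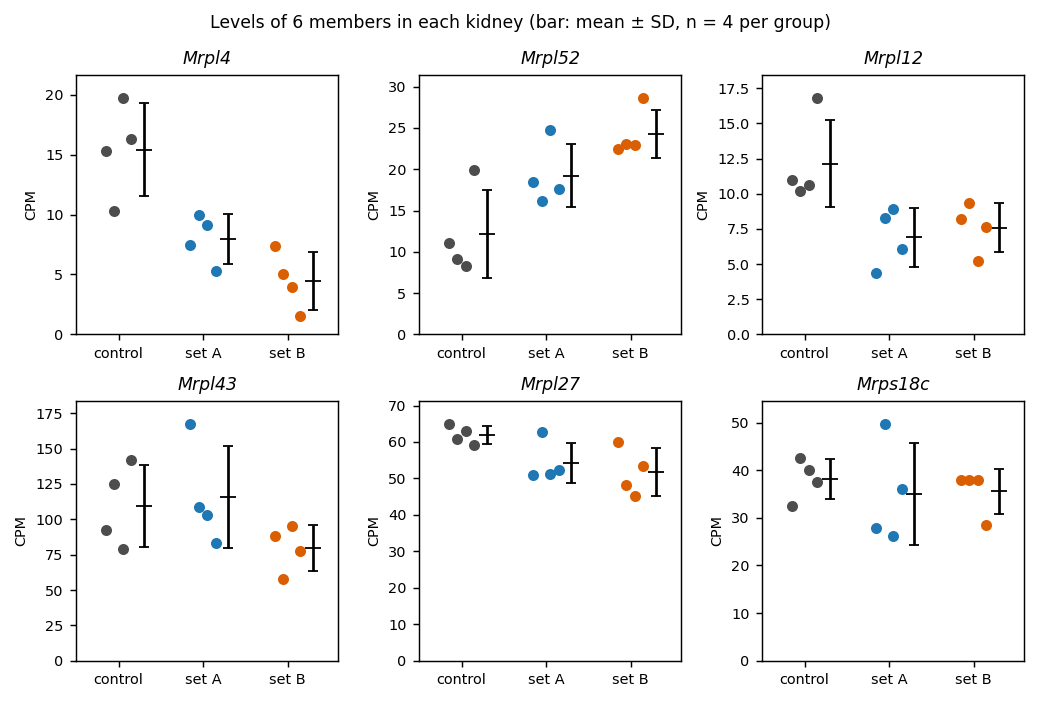
CPM of 6 members in each kidney (points, 4 per group) with the group mean and SD beside them, on axes that start at 0. The ischemic points of Mrpl4 and Mrpl12 lie below all control points, those of Mrpl52 in set B lie above, and those of Mrpl43, Mrpl27 and Mrps18c overlap the controls.

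Mrpl12, named here after its values were seen, encodes the stalk protein of the large subunit. Its CPM was 11, 10.2, 10.6 and 16.8 in the controls, 4.38, 8.29, 8.89 and 6.07 in set A, then 8.19, 9.38, 5.23 and 7.61 in set B. No ischemic kidney reached the lowest control. Its log2 fold change with both sets averaged was -0.77 (SE 0.35, adjusted p = 0.122) and did not pass the threshold.

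The abundant members allowed the tightest statements. Mrpl27 stood at 61.9 ± 2.39 CPM in controls, 54.3 ± 5.56 in set A, then 51.7 ± 6.53 in set B (SD, n = 4), and its log2 fold change with both sets averaged was -0.25 with a 95% interval of -0.55 to 0.05. Mrps18c stood at 38.2 ± 4.28, 34.9 ± 10.7 and 35.6 ± 4.71 CPM, with an interval of -0.56 to 0.28 for the same comparison. Mrpl43 stood at 110 ± 29.1, 116 ± 35.9 and 79.7 ± 16.3 CPM, with an interval of -0.62 to 0.18. A change by 2-fold in either direction lay outside the intervals of these genes. It did so for 5 of the 51 members, the others being Mrps25 and Mrps9 of the small subunit. For 8 members the interval lay above a halving, these 5 together with Mrpl9, Mrpl52 and Mrpl54. For the remaining 43 the interval reached a halving, so a fall of that size was not excluded at this depth and spread.

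**Figure D4:**
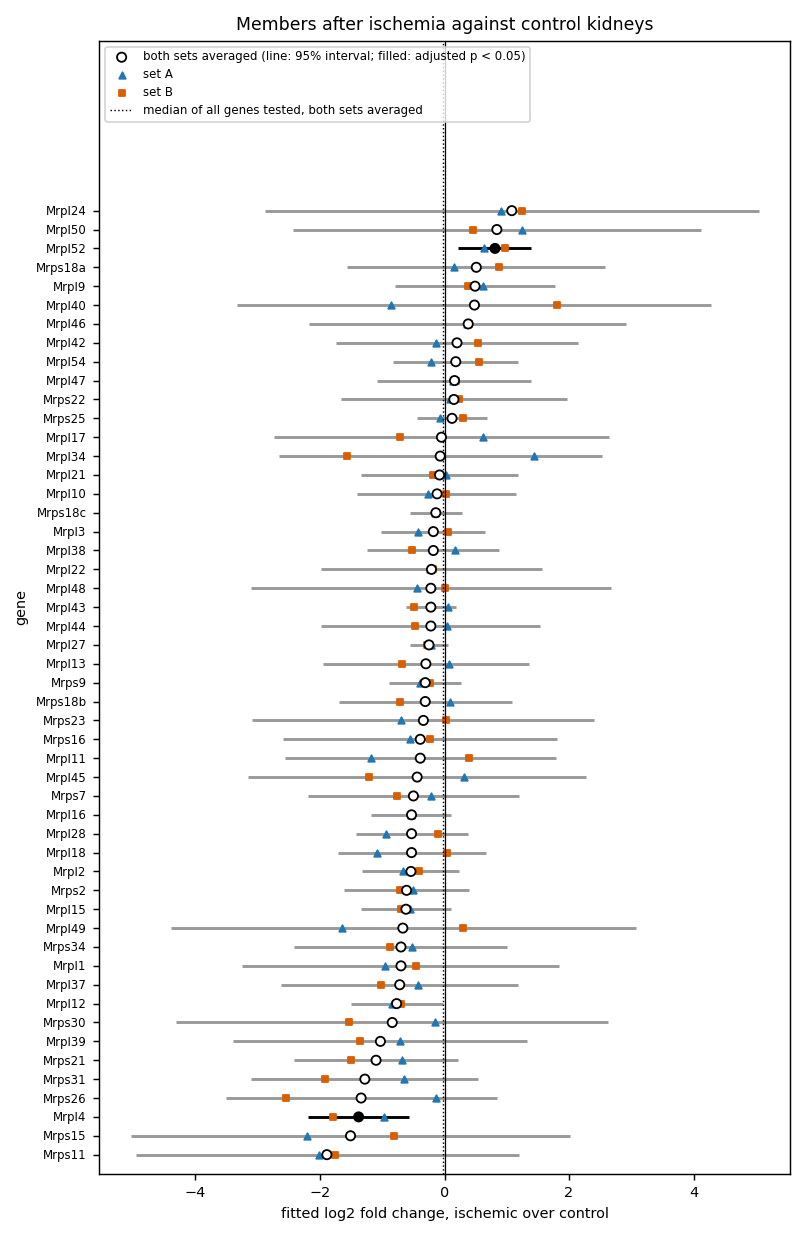
Fitted log2 fold changes of the 51 members (rows), with circles and 95% intervals for both sets averaged against control, triangles for set A and squares for set B. The circle is left of 0 for 39 members, and the filled circles of Mrpl4 at -1.38 and Mrpl52 at 0.81 mark the members that passed the threshold.

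The members were also grouped by place in the particle and by origin. All 8 small subunit members of bacterial type (Mrps2, Mrps7, Mrps9, Mrps11, Mrps15, Mrps16, Mrps18c and Mrps21) had fitted values below 0 in each set, from -0.14 to -1.89 with both sets averaged and a median of -0.55, and none was called. Without Mrps11 and Mrps15, which gave the lowest values and reached the CPM minimum only through the controls, the other 6 lay between -1.10 and -0.14 (median -0.44). Of the 7 mitochondria-specific members of the small subunit, 5 were below 0 (median -0.34). Of the 20 bacterial-type members of the large subunit, 17 were below 0 (median -0.28, Mrpl4 called), and of the 16 mitochondria-specific members 9 were (median -0.20, Mrpl52 called). The classes were not tested against each other. Among the 30 members above the floor in every kidney, 23 had fitted values below 0 (median -0.24), and among the 21 others 16 did (median -0.44).

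Summed over the 51 members, CPM was 506 ± 33.2 in controls (range 472 to 547), 452 ± 69.4 in set A (363 to 517) and 422 ± 30.9 in set B (396 to 463; SD, n = 4). The ranges of control and set B did not overlap, and those of control and set A did. Without Mrpl43, Mrpl27 and Mrps18c, the sums were 296 ± 8.93, 247 ± 42.9 and 255 ± 15.4 CPM.

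Set B was compared with set A because the sets differ in the anaesthesia of the mice, in a direction the labels leave unclear. No member was called, where 0.00857% of all genes tested (1 gene) was. At an unadjusted p below 0.05 there was 1 member with edgeR, where 5.03% of all genes were, 3 with DESeq2 and 4 with limma-trend, none past adjustment. Fitted values were below 0 for 23 members and above for 28, with a median of 0.03 against -0.01 over all genes. The members with the smallest p were Mrpl43, Mrpl34, Mrps26, Mrpl4 and Mrpl18. Mrpl43 was 167, 109, 103 and 83.1 CPM in set A, then 88.0, 58.0, 95.5 and 77.4 CPM in set B, overlapping ranges with a log2 fold change of -0.54 (SE 0.22, unadjusted p = 0.0261, adjusted p = 0.941). Mrpl34, a bacterial-type protein of the large subunit, was the 1 member whose sets did not overlap, where 2.65% of all genes did not. It reached the CPM minimum only through set A, so the count is no result, and it had few counts: 68, 95, 205 and 47 in set A, then 11, 20, 1 and 0 in set B. The controls of Mrpl34 held 42, 57, 0 and 58 counts, so a control kidney was at the floor too, and its adjusted p was 1. The log2 fold changes of Mrps26 and Mrpl4 were -2.40 (SE 1.31) and -0.81 (SE 0.47), and that of Mrpl18 was 1.13 (SE 0.68), in each case with an adjusted p of 1. The intervals excluded a 2-fold difference between the sets for 5 members, Mrpl16, Mrpl27, Mrpl52, Mrps9 and Mrps18c.

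The other parts of mitochondrial translation were read from lists of named genes. With both sets averaged, 14.2% of all genes tested were called lower and 12.2% higher, the shares to set beside the counts of these short lists. Of 6 tested mitoribosome subunits that carry other symbols, none was called. The best measured, Dap3, which encodes a GTP-binding protein of the small subunit, stood at 20.6 ± 3.19 CPM in controls, 13.7 ± 3.60 in set A, then 17.5 ± 4.48 in set B, with a log2 fold change of -0.44 with both sets averaged (SE 0.26, adjusted p = 0.245). None of 18 tested genes of ribosome assembly and rRNA modification was called with both sets averaged, with a median of -0.31. Of 14 tested translation factors, 4 were called lower and none higher (median -0.72). Tufm, the elongation factor that brings aminoacyl-tRNA to the mitochondrial ribosome, fell from 124 ± 12 CPM in controls to 73.8 ± 25.7 in set A, then 69.3 ± 12.5 in set B, and its log2 fold change with both sets averaged was -0.82 (SE 0.18, adjusted p = 0.00136). Gfm1, the translocase of elongation, and Gfm2, which splits the ribosome after termination, fell by 0.92 and 1.21 on the log2 scale (adjusted p = 0.00900 and 0.0302). Of 15 tested mitochondrial aminoacyl-tRNA synthetases, 1 was called lower, Rars2 for arginine (log2 fold change -0.89, SE 0.30, adjusted p = 0.0348), and the median was 0.07.

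Among 10 tested genes of mitochondrial transcription and biogenesis, 3 were called lower and 2 higher, where 14.2% and 12.2% of all genes tested were. The coactivator Ppargc1a fell from 416 ± 39.1 CPM in controls to 189 ± 54.8 in set A, then 235 ± 87.6 in set B, with a log2 fold change of -1.01 for both sets averaged (SE 0.17, adjusted p = 1.52e-04). The nuclear receptor Esrra and the coactivator Ppargc1b fell by 1.42 and 1.27, and Myc and the coactivator Pprc1 rose by 3.45 and 1.51 on the log2 scale. Of the factors whose cores were searched above, the list held Gabpa and Nrf1, and neither passed. Gabpa had a log2 fold change of -0.39 (SE 0.16, adjusted p = 0.0929) and Nrf1 one of 0.30 (SE 0.16, adjusted p = 0.206). Tfam, which packages mitochondrial DNA and activates its transcription, averaged 1.77 ± 0.393 CPM in controls and had a log2 fold change of -0.60 with an SE of 1.32.

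For comparison, 37 of 71 tested nuclear-encoded subunits of the respiratory chain and ATP synthase were called lower with both sets averaged and none higher. Their median log2 fold change was -0.99, and 14.2% of all genes tested were called lower. Of 87 tested cytosolic ribosomal proteins, 48 were called higher, against 12.2% of all genes tested, and none lower. Their median was 0.49. The mitoribosome members, with 1 call each way and a median of -0.31, lay between these medians, but the lists differ in precision: median standard errors were 0.33 for the respiratory chain, 0.15 for the cytosolic ribosome and 0.82 for the members, at median levels of 13.2, 104 and 3.47 CPM. The lists were not tested against each other. The table held no row of a mitochondrially encoded gene, so the messages that these ribosomes translate were not analysed here.

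**Figure D5:**
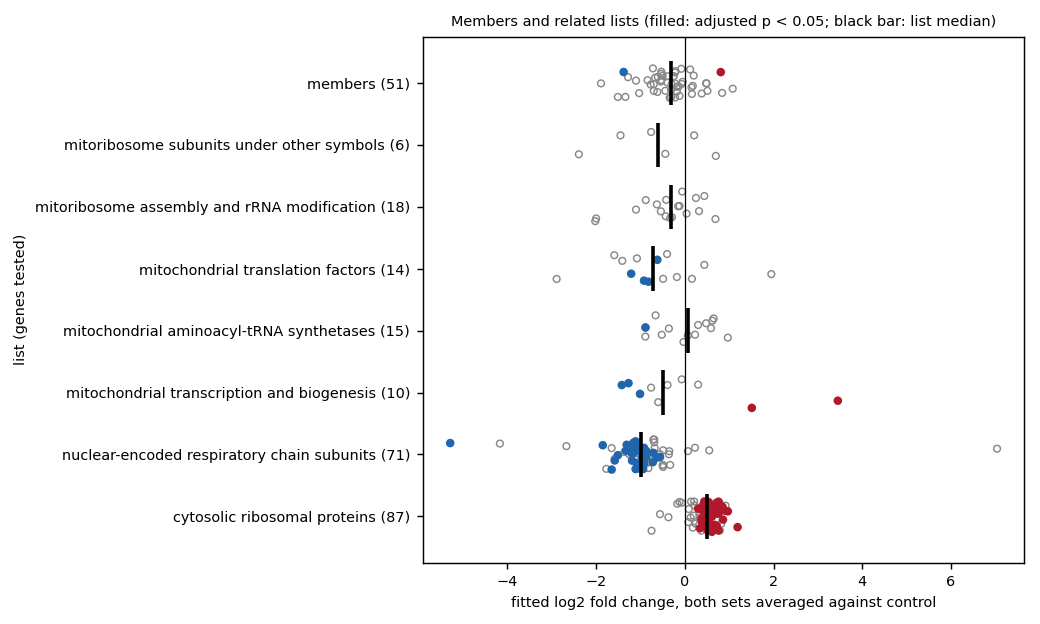
Log2 fold changes of single genes (points, both sets averaged against control) in the members and 7 related lists, with filled points for genes past the threshold and a black bar at each median. The median of the members is -0.31, that of the respiratory chain subunits -0.99 and that of the cytosolic ribosomal proteins 0.49.

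The kidneys themselves changed strongly between the groups. All 10 proximal tubule markers were called lower in each set, and their summed level was 7380.1 to 8148.1 CPM in controls, 813 to 1479.9 in set A, then 504 to 1571.5 in set B. The 5 kidney injury markers summed to 7.23 to 11 CPM in controls, 171 to 233 in set A, then 179 to 249 in set B. Of the 10 immune cell markers, 6 were tested and 2, Csf1r and Cd3e, were called lower, and the sum of the 10 was 46.7 to 66.6 CPM in controls, 12.3 to 30.6 in set A, then 13.1 to 36.3 in set B. Most of that sum was Csf1r, the receptor of a macrophage growth factor, with 51.3 ± 7.81 CPM in controls, 13.6 ± 5.35 in set A, then 10.6 ± 6.69 in set B (SD, n = 4). The other 4 tested markers did not pass and had fitted values above 0 with both sets averaged, 0.47 for Ptprc (SE 0.96), 0.94 for Cd68 (SE 1.61), 0.13 for Emr1 (SE 1.93) and 1.85 for Itgam (SE 2.18) on the log2 scale. Of the 8 markers of other nephron segments, Slc12a1, the salt transporter of the thick ascending limb, was the 1 called, with a log2 fold change of -2.82 (SE 0.24) for both sets averaged, and the sum of the 8 was 2392.6 to 2794.1 CPM in controls, 1057.7 to 1392 in set A, then 961 to 1904.3 in set B. Slc12a1 alone went from 1495.1 ± 51.7 CPM in controls to 180 ± 15.4 in set A and 259 ± 191 in set B, whereas 6 of the 8 had fitted values above 0, among them Umod of the same segment (0.16, SE 0.21). Of the 8 proliferation markers, 6 were tested and 3, Top2a, Cdk1 and Mcm2, were called higher, and the sum of the 8 was 14.6 to 31.3 CPM in controls, 49.7 to 85.7 in set A, then 65.8 to 117 in set B. Cd79a and S100a8 were at 0 in every kidney. In bulk kidney RNA, fewer cells of a type and less RNA per cell cannot be told apart, and the part of these shifts in the values of the members was not tested.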

How the data were processed

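The authors extracted RNA with Trizol, prepared stranded mRNA libraries, sequenced single reads, aligned them to mm10 with STAR and counted them with HTSeq. The values they deposited are raw counts of 23420 genes in 12 kidneys. Tool versions, annotation, strand setting and the handling of multi-mapped reads are not given in the sources used here. CPM used column sums.

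Counts were tested in edgeR 4.0.16 (R 4.3.3) after its low-count filter (minimum count 10, minimum total 15, 11664 genes kept) and TMM scaling, with a coefficient for each of 3 groups, all 12 kidneys, quasi-likelihood F-tests and Benjamini-Hochberg adjustment over all genes at 0.05. Standard errors and intervals came from the same fit. The procedure was run on simulated counts in which random genes were changed in set A only. Those changes were far larger than the members' median, so the run does not show whether shifts of that size would be found. Exact permutation tests of CPM were two-sided. The alternatives were DESeq2 1.42.0, RLE factors, no filter, a robust spread, fits restricted to the compared groups, a block for the replicate number, limma-trend (limma 3.58.1), other membership rules and leaving out each kidney.

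Members and lists were chosen with earlier results of these data known. Named were called members without overlap, the 5 smallest p between the sets, members with a kidney at the floor, the 5 highest and 3 lowest per kb, Mrps30, Mrps18a and Mrps36, and in the other lists the 2 largest calls each way with Ppargc1a, Nrf1, Gabpa, Tfam, Tufm and Dap3.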

Additional observations from a re-analysis of the deposited data

Results flagged for a closer look

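For the main named members and the sum over the 51, 36 groups of 4 kidneys were searched for a kidney apart from the rest (a gap above Dixon's 95% critical value), and 5 held one. About 1 group in 20 would hold one for independent normal values. The groups share the same kidneys, so the 5 cannot be set against that rate. Mrpl52 stood at 28.6 CPM in set B replicate 4, the library with the lowest total, against 22.5 to 23.0 in the other set B kidneys. Mrpl18 stood at 9.37 CPM in the same kidney against 5.99 to 6.33, and Mrps18c at 28.5 CPM against 37.9 to 38.0. Mrpl27 stood at 62.6 CPM in set A replicate 2 against 51 to 52.2, and Mrps26 at 1.13 CPM in set A replicate 4 against 4.51 to 4.84.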

How the results depend on the processing

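Over the alternatives run, the median log2 fold change of the members lay between -0.46 and -0.18 in set A, between -0.43 and -0.23 in set B, and with both sets averaged between -0.41 and -0.24. Of these, -0.46 came with the replicate block, and the values of -0.43 came without set A replicate 2 (in set A) or without set B replicate 1 (in set B). Between the sets it lay between -0.08 and 0.21. The SD of the median between kidneys of a group was 0.25, about as large as the medians themselves. The counts of called members are small, so single kidneys changed them. Leaving out 1 kidney gave 0 to 1 members lower and 0 to 1 higher in set A, 1 lower and 0 to 1 higher in set B, and 0 to 2 lower and 0 to 1 higher with both sets averaged. The added calls were Mrps15 lower without set A replicate 2 and Mrpl52 higher in set A without control replicate 4, and the lost calls were Mrpl52 and, without control replicate 3, Mrpl4. Limma-trend called 2 members lower in set B, the second being Mrps26 (-3.48), and without the low-count filter 0 members were higher with both sets averaged. DESeq2, RLE factors, the robust spread, the fit of only the groups compared and both other membership rules gave the same counts, as did, chosen after seeing the data, the 44 members past the CPM minimum without any one group. With the replicate number as a block the counts were unchanged, at 0 lower in set A, 1 lower and 1 higher in set B and with both sets averaged, and 0 between the sets. Same-numbered kidneys had correlations of -0.055 to 0.045 across genes in their deviations from the group means, so no pairing by number was used. The labels do not say whether kidneys with different numbers came from the same mouse, and this was not tested. The average could not be fitted from only the groups compared. At the floor of the smallest library, an alternative chosen after seeing the data, values at the floor numbered 13 in controls, 16 in set A, then 26 in set B, of 204 in each group. Depth and spread limit most members, whose intervals reach a halving.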
